A study of Homo sapiens with 24 samples.

Results

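The genes GATA3, FOXA1, SPDEF, TFAP2A, TFAP2B, ELF3, ELF5 and EHF, which encode transcription factors of the luminal breast epithelium, were followed across 2 inflammatory breast cancer cell lines and 4 treatments. These 8 genes were taken by their symbols in the probe annotation, out of 18417 genes with a probe set of their own. Each had 1 probe set and shared none with another gene. Gene expression had been measured on 24 Affymetrix Human Gene 1.0 ST arrays, in 8 groups of 3, to profile the response to CG-1521, which the series title calls a histone deacetylase inhibitor. Such inhibitors block enzymes that take acetyl groups off histones and other proteins.

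Cells of the line SUM149PT received 7.5 µM CG-1521, 10 nM 17β-estradiol with 7.5 µM CG-1521, 10 nM 17β-estradiol, or vehicle, which was ethanol and DMSO. Cells of SUM190PT received the same agents with CG-1521 at 5 µM. All groups were collected at 48 h. Both lines are estrogen receptor negative by their labels, and carry p53 changes that the labels give as M237I in SUM149PT and Q317X in SUM190PT. Both were grown in Ham's F-12 with insulin and hydrocortisone. SUM149PT was treated in medium with fetal bovine serum and SUM190PT in medium without it, with ethanolamine, transferrin, triiodothyronine, selenite and albumin added. Line, CG-1521 dose and medium therefore changed together and cannot be told apart in any comparison between the lines. Each group stands for 1 line only, and its 3 arrays came from independent experiments per the series' design text. In bulk RNA, fewer cells of a kind and less RNA per cell cannot be told apart.

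In the breast, ductal epithelium has an inner luminal layer, which makes secretory products and carries hormone receptors, and an outer basal layer with contractile properties. GATA3, a zinc-finger factor, and FOXA1, a forkhead factor that can open closed chromatin, act together with the estrogen receptor in luminal cells, and GATA3 is needed to keep luminal cells differentiated in the mouse mammary gland. TFAP2A and TFAP2B belong to the AP-2 factors, which bind GC-rich sites and act in epidermal, neural crest and mammary cells. SPDEF, ELF3, ELF5 and EHF are ETS factors found mostly in epithelia. ELF5 drives milk-secreting alveolar differentiation in the mouse, and SPDEF drives secretory cell differentiation in mouse airway and gut.

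The stretch of DNA just before the transcription start is shown for the 5 genes with the largest CG-1521 changes. Any part of these sequences in the changes was not tested. The 6 sequences are the 250 bases before an annotated start in RefSeq, build GRCh38.p14, written 5′ to 3′ on the gene's own strand. Capitals mark matches, on either strand, to short core motifs of the 4 factor families: AGATAA for GATA factors, TGTTTAC for forkhead factors, GCCNNNGGC for AP-2 factors and AGGAAG for ETS factors. No match overlapped one of another motif in these sequences.
GATA3, first of 6 starts, chr10:8045083-8045332, plus strand: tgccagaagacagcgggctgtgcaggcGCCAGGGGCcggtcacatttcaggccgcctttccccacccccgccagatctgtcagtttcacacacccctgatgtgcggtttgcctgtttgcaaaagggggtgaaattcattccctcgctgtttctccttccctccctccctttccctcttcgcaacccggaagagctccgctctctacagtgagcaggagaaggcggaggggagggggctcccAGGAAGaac
FOXA1, chr14:37595250-37595499, minus strand: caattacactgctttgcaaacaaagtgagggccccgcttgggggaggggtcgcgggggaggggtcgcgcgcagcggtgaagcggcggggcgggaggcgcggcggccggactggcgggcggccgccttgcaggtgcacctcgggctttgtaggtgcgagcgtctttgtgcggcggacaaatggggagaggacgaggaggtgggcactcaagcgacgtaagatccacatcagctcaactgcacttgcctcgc
SPDEF, chr6:34556330-34556579, minus strand: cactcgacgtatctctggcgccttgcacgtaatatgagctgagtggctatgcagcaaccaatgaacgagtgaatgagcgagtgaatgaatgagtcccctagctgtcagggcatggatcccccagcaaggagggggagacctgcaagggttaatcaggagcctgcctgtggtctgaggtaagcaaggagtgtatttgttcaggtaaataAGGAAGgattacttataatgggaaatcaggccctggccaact
TFAP2B, chr6:50818621-50818870, plus strand: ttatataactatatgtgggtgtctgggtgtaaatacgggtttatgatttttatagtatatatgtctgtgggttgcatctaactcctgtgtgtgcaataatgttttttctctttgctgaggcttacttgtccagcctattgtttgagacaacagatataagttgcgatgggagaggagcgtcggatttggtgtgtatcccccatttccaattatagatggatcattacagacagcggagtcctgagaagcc
EHF, first start, chr11:34624007-34624256, plus strand: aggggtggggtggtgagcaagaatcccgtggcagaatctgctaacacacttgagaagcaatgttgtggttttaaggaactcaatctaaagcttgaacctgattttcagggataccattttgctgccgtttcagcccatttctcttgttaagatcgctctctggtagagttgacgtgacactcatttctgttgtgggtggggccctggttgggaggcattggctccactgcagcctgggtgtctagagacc
EHF, second start, chr11:34632316-34632565, plus strand: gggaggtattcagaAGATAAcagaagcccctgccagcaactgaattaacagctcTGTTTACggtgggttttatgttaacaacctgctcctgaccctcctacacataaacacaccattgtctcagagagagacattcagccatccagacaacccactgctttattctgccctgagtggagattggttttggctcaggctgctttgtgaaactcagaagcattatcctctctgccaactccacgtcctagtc

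RefSeq held promoter windows for all 8 genes, 15 in number. In the 250 bases before the start, the GATA motif occurred in 9.17% of all 35116 human promoter windows, the forkhead motif in 2.98%, the AP-2 motif in 19.8% and the ETS motif in 28.7%. The first GATA3 start held an AP-2 match and an ETS match, SPDEF an ETS match, and the second EHF start a GATA and a forkhead match. FOXA1, TFAP2B and the first EHF start held none of the 4 motifs in these bases. Matches also occurred in windows not printed, including those of genes with smaller changes. The TFAP2A start at chr6:10412391 held 3 ETS matches in these bases, and ELF5 held a forkhead and an ETS match. The GATA3 starts at chr10:8053641 and chr10:8054688 each held an AP-2 match. The remaining GATA3 starts, the other TFAP2A start and ELF3 held none. The GC share of the printed bases ran between 40.8% in TFAP2B and 67.2% in FOXA1. A match describes letters and does not show that a factor binds there.

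Replicate arrays correlated across genes at 0.995 to 0.996 for SUM149PT, and at 0.981 to 0.996 for SUM190PT. In SUM190PT the third array with estradiol and the third with vehicle stood apart: the median of 28 DNA replication genes was lower by 1.59 with estradiol and by 1.61 with vehicle (log2) than on the group's other arrays. On those arrays ELF3 was lower than on the other arrays of its group, by 0.30 with estradiol and by 0.56 with vehicle, and EHF was higher, by 0.42 with estradiol and by 0.34 with vehicle. SPDEF was higher there by 0.19 and 0.40, TFAP2A by 0.36 and 0.21, and FOXA1 by 0.28 and 0.01 (estradiol, then vehicle). The CG-1521 changes of the 8 genes in SUM190PT are therefore also given without both arrays. Array values have no true zero and no detection call was used, so levels are compared within a gene only.

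**Figure D1:**
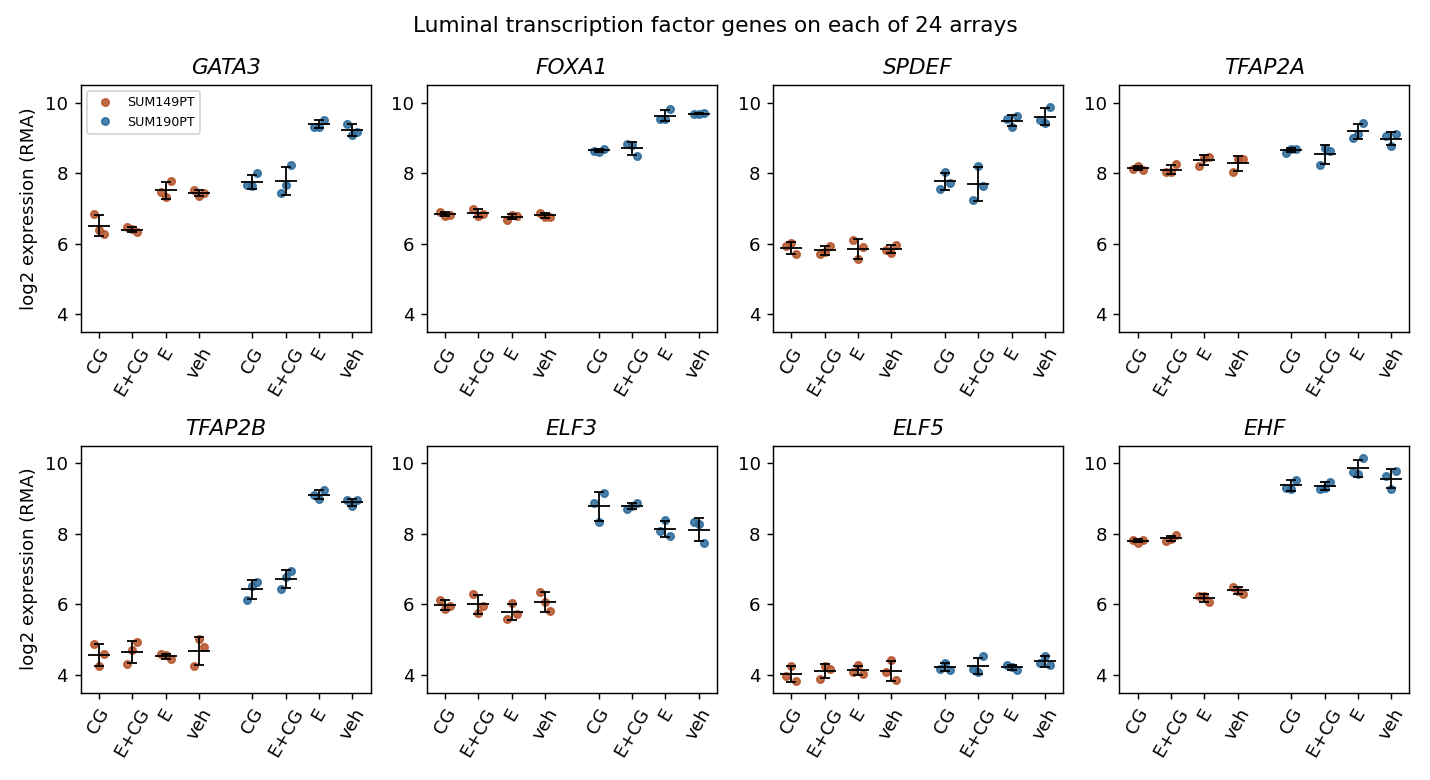
Log2 expression of each gene on each of the 24 arrays (points), with the mean and SD of each group of 3 (bars). CG is CG-1521, E is 17β-estradiol and veh is vehicle; SUM149PT is orange and SUM190PT blue, and heights are not comparable between panels. TFAP2B, SPDEF, GATA3 and FOXA1 sit lower on the CG-1521 arrays of SUM190PT, and EHF sits higher on those of SUM149PT.

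With CG-1521, GATA3 fell in both lines, FOXA1, SPDEF and TFAP2B fell in SUM190PT, and EHF rose in SUM149PT. The largest fall among the 8 genes was that of TFAP2B in SUM190PT, 5.55-fold, and the largest rise was that of EHF in SUM149PT, 2.65-fold, both against vehicle. These changes passed limma's test with and without estradiol. ELF3 rose in SUM190PT by the same test, on arrays that overlapped in the comparison with vehicle, and ELF5 passed it in neither line.

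In SUM149PT with CG-1521 against vehicle, 1 of the 8 genes rose and 1 fell, where 34.3% of all 18417 genes changed (adjusted p under 0.05), 14.4% upward and 19.9% downward. With estradiol present the counts were again 1 and 1, where 36.9% of all genes changed, 16.5% upward and 20.4% downward. In SUM190PT, 1 rose and 4 fell with CG-1521 against vehicle, where 16.6% of all genes changed, 8.32% upward and 8.26% downward. With estradiol and CG-1521 against estradiol, 1 rose and 6 fell in SUM190PT, where 25.7% changed, 12.5% upward and 13.2% downward. Without the arrays that stood apart, 0 rose and 4 fell without estradiol in SUM190PT (17.5% of all genes changed), and 0 rose and 5 fell with it (27.4%). The number of all genes called rested on single arrays: 3053 in SUM190PT against vehicle became 1567 without the first CG-1521 array and 1878 without the second vehicle array. With both agents against estradiol, 4732 became 2605 without the second estradiol array, 2679 without the first array with both agents and 3063 without the third array with both agents. Asking also for a change of at least 2-fold left EHF alone in SUM149PT without estradiol (4.76% of all genes) and EHF and GATA3 with it (4.81%). In SUM190PT it left TFAP2B, SPDEF, GATA3 and FOXA1 without estradiol (3.85%) and TFAP2B, SPDEF and GATA3 with it (4.89%). The median log2 change of the 8 genes was -0.09 in SUM149PT and -0.68 in SUM190PT without estradiol, beside medians over all genes of 0.00 and -0.05. With estradiol it was 0.04 in SUM149PT and -0.78 in SUM190PT, beside 0.03 and 0.07. The comparisons with and without estradiol share no arrays within a line.

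**Figure D2:**
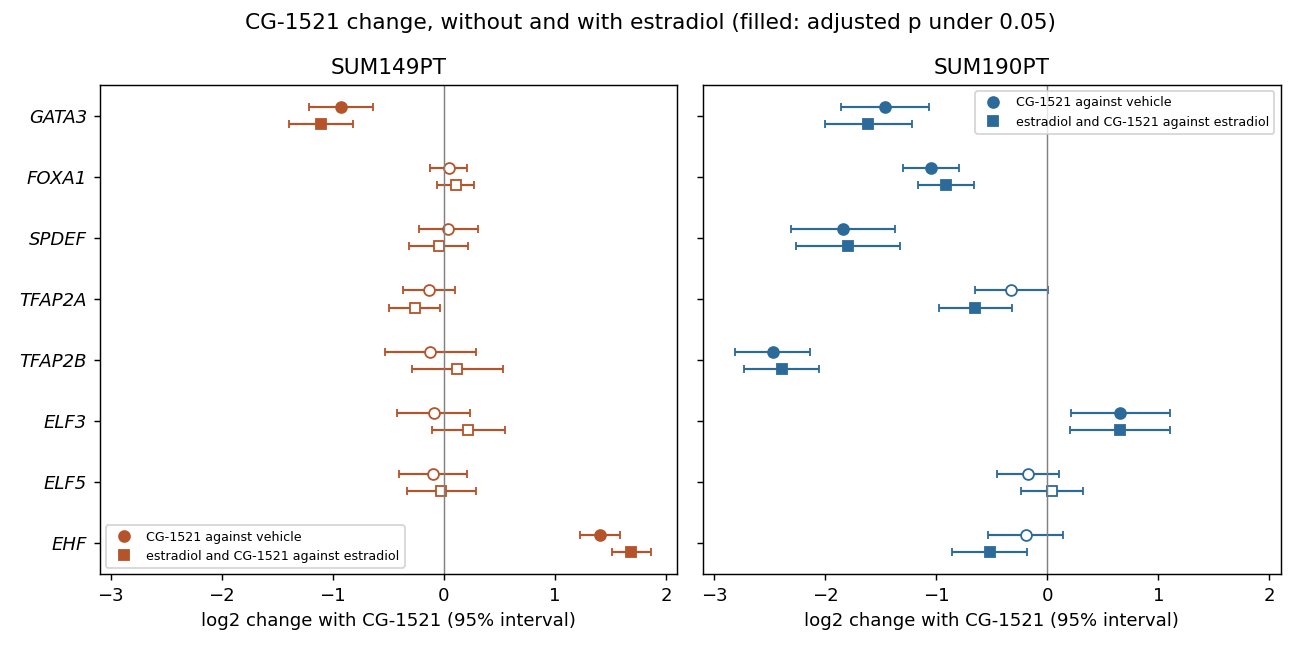
Log2 change with CG-1521 for each gene in SUM149PT (left) and SUM190PT (right), with 95% intervals from limma; circles are CG-1521 against vehicle, squares are estradiol and CG-1521 against estradiol, and filled symbols passed an adjusted p under 0.05. In SUM190PT, TFAP2B lies at -2.47 and -2.39; in SUM149PT, EHF lies at 1.41 and 1.69.

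GATA3 (chr10:8045333-8075198, GRCh38.p14) was the single gene of the 8 that fell in both lines. On SUM149PT arrays its log2 level was 6.84, 6.40 and 6.27 with CG-1521, against 7.51, 7.34 and 7.43 with vehicle. Under both agents it was 6.46, 6.41 and 6.33, against 7.45, 7.31 and 7.77 with estradiol. All 6 arrays with CG-1521 lay below all 6 without it. The log2 change was -0.92 (SE 0.13, adjusted p = 4.87e-05) without estradiol and -1.11 (SE 0.13, adjusted p = 7.27e-06) with it.

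SUM190PT started from a higher GATA3 level. There it read 7.65, 7.62 and 7.99 with CG-1521, against 9.41, 9.07 and 9.17 with vehicle. With both agents it read 7.43, 7.68 and 8.22, against 9.32, 9.31 and 9.52 with estradiol. Again the 6 arrays with CG-1521 lay below the 6 without it, and some of them fell within the range of SUM149PT arrays without CG-1521, which reached 7.77. The changes were -1.46 (SE 0.18, adjusted p = 0.000261) and -1.61 (SE 0.18, adjusted p = 0.000121). Leaving out the arrays that stood apart gave -1.48 and -1.54. The response in SUM149PT minus that in SUM190PT was 0.54 (SE 0.24, adjusted p = 0.122) without estradiol and 0.50 (SE 0.24, adjusted p = 0.155) with it, so a difference between the lines did not pass the test. Its 95% intervals, which like all others here are not adjusted for the number of genes, ran 0.04 to 1.03 and 0.00 to 1.00.

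The antisense gene GATA3-AS1, looked up beyond the 8, changed by 0.07 (SE 0.11, adjusted p = 0.693) in SUM149PT and by -0.11 (SE 0.12, adjusted p = 0.585) in SUM190PT with CG-1521 against vehicle, neither past the threshold. Under vehicle it averaged 5.02 in SUM149PT and 5.12 in SUM190PT, below the median of all probe sets, 5.39 to 5.50 by array. Whether GATA3-AS1 was above background was not tested.

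FOXA1 (chr14:37589552-37595249) fell in SUM190PT and held a narrow range in SUM149PT. In SUM190PT it read 8.63, 8.61 and 8.68 with CG-1521, against 9.68, 9.68 and 9.69 with vehicle. With estradiol and CG-1521 the values were 8.83, 8.80 and 8.49, against 9.53, 9.53 and 9.81 with estradiol. Arrays with and without CG-1521 did not overlap, and the vehicle arrays were nearly identical. The log2 change was -1.04 (SE 0.12, adjusted p = 0.000131) without estradiol, a 2.06-fold fall, and -0.91 (SE 0.12, adjusted p = 0.000244) with it. Without the arrays that stood apart it was -1.04 and -0.82.

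All 12 SUM149PT arrays held FOXA1 between 6.68 and 6.98. It read 6.91, 6.80 and 6.82 with CG-1521, against 6.87, 6.77 and 6.76 with vehicle, and the groups overlapped. The change was 0.04 (SE 0.08, adjusted p = 0.738), with a 95% interval of -0.13 to 0.21. With estradiol the interval was -0.06 to 0.27. The responses differed between the lines: SUM149PT minus SUM190PT was 1.09 (SE 0.13, adjusted p = 6.42e-06) without estradiol and 1.02 (SE 0.13, adjusted p = 1.03e-05) with it.

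SPDEF (chr6:34537802-34556329), the ETS factor tied to secretory epithelium, showed the same pattern with a larger fall. SUM190PT arrays read 7.55, 8.02 and 7.72 with CG-1521, against 9.50, 9.43 and 9.87 with vehicle. With both agents they read 7.23, 8.20 and 7.64, against 9.54, 9.31 and 9.61 with estradiol. The 6 arrays with CG-1521 lay below the other 6. The SD was 0.24 with CG-1521 and 0.24 with vehicle, and it was 0.49 under both agents, against 0.16 with estradiol. The log2 change was -1.84 (SE 0.22, adjusted p = 0.000183), a 3.57-fold fall, and -1.80 (SE 0.22, adjusted p = 0.000173) with estradiol. Without the arrays that stood apart it was -1.70 and -1.73.

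In SUM149PT, SPDEF read 5.94, 6.01 and 5.70 with CG-1521, against 5.83, 5.74 and 5.97 with vehicle. The groups overlapped, and the changes of 0.04 without and -0.05 with estradiol did not pass the test (95% intervals -0.23 to 0.31 and -0.31 to 0.22). SPDEF read 5.55 to 6.10 over the SUM149PT arrays, where the median of all probe sets was 5.39 to 5.50 by array. Whether SPDEF was above background there, and the part of this level in the difference between the lines, was not tested. Even the lowest SPDEF array of SUM190PT with CG-1521, at 7.23, was above every SUM149PT array. The response difference between the lines was 1.88 (SE 0.26, adjusted p = 2.96e-05) without estradiol and 1.75 (SE 0.26, adjusted p = 4.95e-05) with it.

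The AP-2 genes both lie on chromosome 6, TFAP2A at chr6:10396677-10419659 and TFAP2B at chr6:50818355-50847619. TFAP2B showed the largest change of the 8 genes in either line. In SUM190PT it read 6.12, 6.53 and 6.63 with CG-1521, against 8.96, 8.78 and 8.96 with vehicle. With estradiol and CG-1521 it read 6.43, 6.77 and 6.95, against 9.10, 8.99 and 9.24 with estradiol. The highest array with CG-1521, at 6.95, stood well below the lowest without it, at 8.78. The log2 change was -2.47 (SE 0.16, adjusted p = 4.11e-06) without estradiol and -2.39 (SE 0.16, adjusted p = 4.89e-06) with it, and -2.44 and -2.33 without the arrays that stood apart.

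In SUM149PT, TFAP2B read 4.87, 4.24 and 4.58 with CG-1521, against 4.24, 5.02 and 4.80 with vehicle. Those groups overlapped, and no SUM149PT array reached the lowest SUM190PT array, which read 6.12. The changes of -0.12 and, with estradiol, 0.12 did not pass the test (95% intervals -0.53 to 0.29 and -0.29 to 0.53). The responses of the lines differed by 2.35 (SE 0.27, adjusted p = 2.63e-06) without estradiol and 2.51 (SE 0.27, adjusted p = 6.56e-07) with it. In SUM149PT the probe set read below the median of all probe sets, which was 5.39 to 5.50 by array, and whether it was above background there was not tested. The part of this low level in the difference between the lines was not tested.

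TFAP2A, which can pair with other AP-2 proteins, moved much less. In SUM190PT it read 8.58, 8.69 and 8.68 with CG-1521, against 9.04, 8.76 and 9.11 with vehicle. With both agents it read 8.23, 8.73 and 8.64, against 9.0, 9.12 and 9.42 with estradiol. The arrays with CG-1521 lay below the others in both comparisons, and the fall passed the test with estradiol, at -0.65 (SE 0.15, adjusted p = 0.00921). Without estradiol the change was -0.33 (SE 0.15, adjusted p = 0.165). The difference between these changes was -0.32 (SE 0.21, adjusted p = 0.398), which did not pass. Leaving out the arrays that stood apart gave -0.26 without estradiol (adjusted p = 0.296) and -0.53 with it (adjusted p = 0.0257).

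In SUM149PT, TFAP2A with CG-1521 ran 8.10 to 8.20, against 8.02 to 8.41 with vehicle, on overlapping arrays. Under both agents it ran 8.02 to 8.25, against 8.20 to 8.46 with estradiol. The changes were -0.14 (SE 0.11, adjusted p = 0.391) and -0.26 (SE 0.11, adjusted p = 0.0717), neither past the threshold. The second passed with the replicate number as a block (adjusted p = 0.0387), without the dimmest 50% of genes, with a trended robust prior, and without the first estradiol array or the third with both agents. The antisense TFAP2A-AS1, also looked up, changed by 0.02 (SE 0.17, adjusted p = 0.953) in SUM149PT and 0.04 (SE 0.15, adjusted p = 0.891) in SUM190PT, neither past the threshold. Whether TFAP2A-AS1 was above background was not tested.

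EHF (chr11:34621093-34663288), an ETS factor of glandular and airway epithelium, was the gene of the 8 that rose in SUM149PT. It read 7.82, 7.75 and 7.84 with CG-1521, against 6.50, 6.39 and 6.30 with vehicle. With estradiol and CG-1521 the values were 7.79, 7.86 and 7.96, against 6.25, 6.24 and 6.06 with estradiol. All 6 arrays with CG-1521 lay above all 6 without it, by more than 1 log2 unit. The log2 change was 1.41 (SE 0.08, adjusted p = 3.37e-09) without estradiol and 1.69 (SE 0.08, adjusted p = 5.02e-10) with it, a 3.22-fold rise.

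EHF did not rise in SUM190PT, where its level was higher to begin with. It read 9.29, 9.29 and 9.54 with CG-1521, against 9.65, 9.26 and 9.79 with vehicle, and those arrays overlapped. With both agents it read 9.26, 9.29 and 9.47, against 9.75, 9.70 and 10.14 with estradiol, and there the arrays with CG-1521 lay lower. The changes were -0.19 (SE 0.16, adjusted p = 0.432) and -0.52 (SE 0.16, adjusted p = 0.0295). The second passed the test, but not after quantile normalization (-0.38, adjusted p = 0.0948) or without the arrays that stood apart (-0.38, adjusted p = 0.0674). Leaving out only the third estradiol array, or 1 of the first 2 arrays with both agents, also ended the call. Against vehicle, the change without the arrays that stood apart was -0.08 (adjusted p = 0.755). The responses of the lines differed by 1.60 (SE 0.18, adjusted p = 1.97e-06) without estradiol and 2.21 (SE 0.18, adjusted p = 2.06e-08) with it, and SUM149PT was the higher.

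ELF5 is the neighbour of EHF on chromosome 11 (chr11:34478791-34513794), 107 kb away. ELF5 read 3.83 to 4.27 in SUM149PT with CG-1521, against 3.85 to 4.42 with vehicle. In SUM190PT it read 4.14 to 4.35 with CG-1521, against 4.27 to 4.55 with vehicle. All 24 arrays lay between 3.83 and 4.55, and the groups overlapped. These values lay below the median of all probe sets, 5.39 to 5.50 by array, and whether ELF5 was above background in either line was not tested. ELF5 was the only gene of the 8 among the dimmer 50% of all genes, and its changes of -0.10 in SUM149PT and -0.17 in SUM190PT did not pass (95% intervals -0.41 to 0.21 and -0.45 to 0.11). Without the arrays that stood apart the change in SUM190PT was -0.23 (adjusted p = 0.332).

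ELF3 (chr1:202010587-202017183), an ETS factor induced by inflammatory signals in epithelia, rose in SUM190PT with a margin that depended on the arrays used. It read 8.86, 8.33 and 9.15 with CG-1521, against 8.35, 8.27 and 7.75 with vehicle. Under both agents it read 8.70, 8.78 and 8.88, against 8.09, 8.38 and 7.93 with estradiol. The first pair of groups overlapped, through the second CG-1521 array and the first vehicle array, and the second pair did not. The changes were 0.66 (SE 0.21, adjusted p = 0.0464) and 0.66 (SE 0.21, adjusted p = 0.0345).

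Without the arrays of SUM190PT that stood apart, on which ELF3 was low, the ELF3 changes were 0.47 (adjusted p = 0.133) and 0.55 (adjusted p = 0.0566). Against vehicle the call also ended without the first or the third CG-1521 array, or without the second or the third vehicle array, where the change ran 0.47 to 0.73. It ended as well with the replicate block (adjusted p = 0.0507) and with only the groups compared (adjusted p = 0.0944). With estradiol it ended without the first or the third estradiol array or without any 1 of the arrays with both agents, where the change ran 0.55 to 0.70. In SUM149PT, ELF3 read 6.13, 5.88 and 5.95 with CG-1521, against 6.36, 6.07 and 5.80 with vehicle. Those arrays overlapped, and the change was -0.09 (SE 0.15, adjusted p = 0.715). ELF3 ran 5.58 to 6.36 over the SUM149PT arrays, and whether it was above background there was not tested. The difference between the lines was -0.75 (SE 0.28, adjusted p = 0.0596) without estradiol and -0.43 (SE 0.28, adjusted p = 0.303) with it.

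The difference between the lines' responses passed the test for 4 of the 8 genes without estradiol, where 20.6% of all genes passed, 9.01% with the higher value in SUM149PT, and for 4 with it, where 20.4% passed, 10.6% with the higher value in SUM149PT. Both times these were FOXA1, SPDEF, TFAP2B and EHF, and both times the SUM149PT response was the higher. GATA3, TFAP2A, ELF3 and ELF5 did not pass.

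Estradiol was compared with vehicle in these lines labelled estrogen receptor negative. None of the 8 genes passed limma's test in either line, with estradiol against vehicle or with estradiol added to CG-1521, and none showed an interaction between the agents. Over all genes, 0% passed with estradiol against vehicle in SUM149PT and 0.00543% in SUM190PT. With estradiol added to CG-1521, 0% passed in either line, and for the interaction 0% passed in SUM149PT and 0.516% in SUM190PT. With the replicate number as a block, 519 genes passed with estradiol against vehicle in SUM190PT and 0 for the interaction there, and none of the 8 was among them. At an unadjusted p under 0.05 limma counted 845 genes (4.59%) with estradiol against vehicle in SUM149PT, 1156 (6.28%) with estradiol added to CG-1521 and 1046 (5.68%) for the interaction. In SUM190PT it counted 4531 (24.6%), 889 (4.83%) and 4159 (22.6%).

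Among the 8 genes, 1 reached an unadjusted p under 0.05 with estradiol in SUM149PT, EHF. It read 6.25, 6.24 and 6.06 with estradiol, against 6.50, 6.39 and 6.30 with vehicle, and these arrays did not overlap. The change was -0.22 (SE 0.08, adjusted p = 0.998), with a 95% interval of -0.39 to -0.04. EHF also had an unadjusted p under 0.05 for the interaction in SUM149PT, at 0.28 (SE 0.12, adjusted p = 0.856).

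The remaining changes with estradiol in SUM149PT lay between -0.29 for ELF3 and 0.08 for TFAP2A. In SUM190PT they lay between -0.16 for ELF5 and 0.30 for EHF, with a 95% interval for EHF of -0.04 to 0.63. TFAP2B in SUM190PT read 9.10, 8.99 and 9.24 with estradiol, against 8.96, 8.78 and 8.96 with vehicle, on arrays that did not overlap, and its change was 0.21 (SE 0.16, adjusted p = 0.424). ESR1, which encodes the estrogen receptor alpha, averaged 4.76 ± 0.15 in SUM149PT and 4.70 ± 0.15 in SUM190PT under vehicle (SD, n = 3 each). Both means lay below the array medians of all probe sets, and whether ESR1 was above background was not tested. The ESR1 change with CG-1521 was 0.07 in SUM149PT and -0.14 in SUM190PT, neither past the threshold.

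SUM149PT carried less of these transcripts than SUM190PT. Under each of the 4 treatments 7 of the 8 genes were lower in SUM149PT, and ELF5 did not pass. Over all genes, 47.6% differed between the lines under CG-1521, 44.9% under both agents, 54.7% under estradiol and 46.7% under vehicle, and 22.6%, 22%, 23.6% and 22.1% were lower in SUM149PT. The median difference of the 8 genes was -1.68 under CG-1521 and -2.47 under vehicle, beside 0.04 and -0.02 over all genes.

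Under vehicle the largest measured difference was that of TFAP2B, 4.69 ± 0.40 in SUM149PT and 8.90 ± 0.10 in SUM190PT (log2, SD, n = 3 each). It came to -4.21 (SE 0.19, adjusted p = 2.04e-14). Since TFAP2B may not have been above background in SUM149PT, no fold is given and the size is a lower bound if it was not. SPDEF differed by -3.76 (SE 0.19, adjusted p = 1.04e-13), EHF by -3.17 (SE 0.13, adjusted p = 2.06e-15) and FOXA1 by -2.89 (SE 0.10, adjusted p = 7.46e-17). Whether SPDEF and ELF3 were above background in SUM149PT was not tested. Smaller differences were those of ELF3, -2.05, GATA3, -1.79, and TFAP2A, -0.69 (adjusted p = 0.000168). ELF5 was at -0.26 (SE 0.15, adjusted p = 0.151), and without the second SUM149PT vehicle array it passed at -0.41 (adjusted p = 0.0311). Whether ELF5 was above background in either line was not tested.

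**Figure D3:**
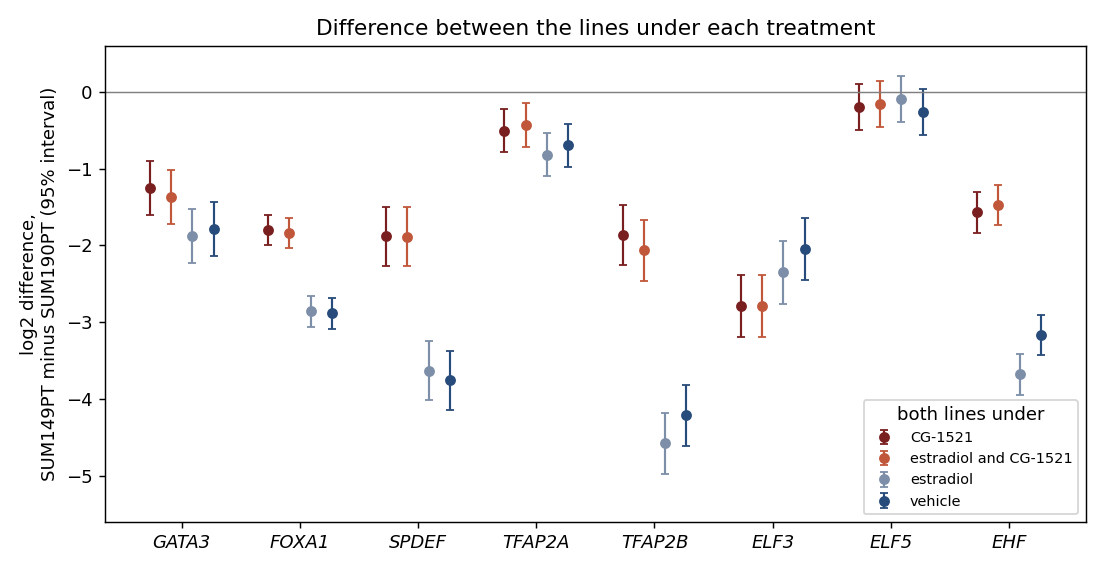
Log2 difference of each gene between the lines, SUM149PT minus SUM190PT, under CG-1521, estradiol and CG-1521, estradiol, and vehicle, with 95% intervals from limma. The differences of TFAP2B, SPDEF, EHF and FOXA1 lie nearer to 0 under CG-1521, such as -1.86 against -4.21 under vehicle for TFAP2B, and ELF5 lies near 0 throughout.

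Under CG-1521 the lines were closer for TFAP2B, at -1.86 (SE 0.19, adjusted p = 2.51e-08), SPDEF, at -1.88, FOXA1, at -1.80, and EHF, at -1.57. Of these, TFAP2B, SPDEF and FOXA1 had fallen in SUM190PT and EHF had risen in SUM149PT. ELF3 was at -2.79 under CG-1521, and at -2.05 under vehicle. With both agents the differences were -2.07 for TFAP2B, -1.88 for SPDEF, -1.84 for FOXA1 and -1.47 for EHF. TFAP2A, at -0.43 (SE 0.14, adjusted p = 0.0119) with both agents, no longer passed without the second SUM190PT array of that group (-0.34, adjusted p = 0.0775) or without the third (-0.38, adjusted p = 0.051).

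Ordered by group mean, the SUM190PT groups ranked above the SUM149PT groups for all 8 genes. For FOXA1, SPDEF, TFAP2B, ELF3 and EHF no array of one line reached the other. For GATA3 the SUM190PT groups with CG-1521 overlapped SUM149PT with estradiol, and for TFAP2A and ELF5 neighbouring groups of the lines overlapped. Within SUM190PT, the groups with CG-1521 ranked below estradiol and vehicle for GATA3, FOXA1, SPDEF, TFAP2A, TFAP2B and EHF, and above them for ELF3. The ranks of estradiol against vehicle did not hold beyond array spread except for TFAP2B in SUM190PT and EHF in SUM149PT, and neither passed the test. All neighbouring SUM149PT groups overlapped for FOXA1, SPDEF, TFAP2A, TFAP2B, ELF3 and ELF5.

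Lists of genes for the families, partners and products of these factors were read beside the 8. Of 17 related family genes, 1 rose and 3 fell in SUM149PT with CG-1521 against vehicle, and 5 rose and none fell in SUM190PT (34.3% and 16.6% of all genes changed in these comparisons). In SUM190PT 4 rose and none fell without the arrays that stood apart (17.5% of all genes changed). In SUM149PT, ETS2 fell by 0.90 on the log2 scale (adjusted p = 2.07e-06) and ETS1 by 0.54 (adjusted p = 0.000212), while in SUM190PT ETS2 rose by 0.98 (adjusted p = 0.0136) and ETS1 by 0.96 (adjusted p = 0.0249). With both agents against estradiol in SUM190PT, ETS2 rose by 0.85, and the change of ETS1, 0.70, did not pass. Both encode ETS factors of wide expression, and the difference between the lines passed for both, at -1.88 (SE 0.27, adjusted p = 3.33e-05) for ETS2 and -1.50 (SE 0.29, adjusted p = 0.000834) for ETS1. The list's median change was 0.02 in SUM149PT and -0.10 in SUM190PT, beside 0.00 and -0.05 over all genes. With both agents against estradiol it was 0.00 in SUM149PT and 0.34 in SUM190PT, beside 0.03 and 0.07.

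TFAP2C, the AP-2 gene best known from luminal and HER2-positive breast cancer, read 7.95 ± 0.19 in SUM149PT with CG-1521 and 8.61 ± 0.10 with vehicle (SD, n = 3 each). It fell there, by 0.66 (SE 0.09, adjusted p = 3.04e-05), and its change of -0.28 (SE 0.16, adjusted p = 0.244) in SUM190PT did not pass. The difference between the lines was -0.38 (SE 0.19, adjusted p = 0.155). GATA2 passed in neither line, at -0.17 in SUM149PT and -0.18 in SUM190PT.

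Of 20 partner regulators of luminal cells, 3 rose and 5 fell in SUM149PT with CG-1521 against vehicle, and 2 rose and 5 fell in SUM190PT, beside 34.3% and 16.6% of all genes changed. In SUM190PT 1 rose and 4 fell without the arrays that stood apart (17.5% of all genes changed). MYB, a factor expressed in hormone-responsive breast cells, fell in both, at -1.28 (SE 0.13, adjusted p = 1.63e-06) in SUM149PT and -1.61 (SE 0.25, adjusted p = 0.00113) in SUM190PT. XBP1, a factor of the secretory and unfolded protein response, rose in SUM149PT (0.42, adjusted p = 0.00102) and fell in SUM190PT (-0.68, adjusted p = 0.00793), and the difference passed the test (adjusted p = 9.21e-05). GRHL2, an epithelial factor, fell in both lines, by 0.95 in SUM149PT and 0.65 in SUM190PT. In contrast, GRHL1 rose in both lines, by 0.42 in SUM149PT and 0.80 in SUM190PT. TRPS1, a GATA-type repressor, changed by -0.18 in SUM149PT, which did not pass, and fell by 0.98 in SUM190PT. The list's median was -0.14 in both lines. With both agents against estradiol it was -0.08 in SUM149PT and 0.14 in SUM190PT, beside 0.03 and 0.07 over all genes.

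Of 33 products of luminal epithelium, 6 rose and 6 fell in SUM149PT, and 1 rose and 11 fell in SUM190PT, with medians of 0.03 and -0.31, beside 34.3% of all genes changed in SUM149PT and 16.6% in SUM190PT. Without the arrays that stood apart, 1 rose and 8 fell in SUM190PT (17.5% of all genes changed). The SUM190PT falls included PRLR, the prolactin receptor (-1.69, adjusted p = 0.000173), CA12, a carbonic anhydrase (-1.45, adjusted p = 0.000234), and MUCL1, a small secreted mucin-like protein (-1.14, adjusted p = 9.39e-05). PRLR and CA12 fell in SUM149PT too, PRLR by 0.58 and CA12 by 0.89, while the MUCL1 change there, -0.03, did not pass. In SUM149PT, AGR2, a secretory pathway disulfide isomerase, rose by 3.88 (SE 0.13, adjusted p = 1.19e-11), TSPAN1 by 1.68 (SE 0.13, adjusted p = 5.46e-08), and the tight junction gene CLDN4 by 1.40 (SE 0.08, adjusted p = 3.93e-09). In SUM190PT CLDN4 rose by 0.95, and AGR2 (0.18) and TSPAN1 (0.05) did not pass. Under vehicle 3 of the 33 were higher and 20 lower in SUM149PT than in SUM190PT. Over all genes, 46.7% differed in this comparison, and 22.1% were lower in SUM149PT. The lower genes of the list included MUCL1 at -8.16, AGR2 at -7.04 and ERBB2, which encodes HER2, at -5.41. Whether MUCL1, AGR2 and ERBB2 were above background in SUM149PT was not tested. For any that was not, the difference is a lower bound, and an absent change there, as for MUCL1, says little.

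Of 16 regulators of basal and mesenchymal cells, 2 rose and 6 fell in SUM149PT, where 34.3% of all genes changed. None passed in SUM190PT without estradiol (16.6% of all genes), and 8 rose with both agents against estradiol (25.7%), or 6 without the arrays that stood apart (27.4%). FOSL1, an AP-1 subunit, rose by 1.01 (SE 0.14, adjusted p = 2.91e-05) in SUM149PT, and TCF4 fell by 1.06 (adjusted p = 3.24e-06). SNAI2, which encodes a repressor found in basal cells, was at 4.46 between the lines under vehicle, higher in SUM149PT. The list's median was 0.02 in SUM149PT and -0.02 in SUM190PT. With both agents against estradiol it was 0.03 in SUM149PT and 0.35 in SUM190PT, beside 0.03 and 0.07 over all genes. Of 13 products of basal epithelium, 5 rose and 4 fell in SUM149PT, and 5 rose and 1 fell in SUM190PT, with medians of -0.02 and 0.65. Over all genes, 34.3% and 16.6% changed in these comparisons. In SUM190PT 7 rose and 1 fell without the arrays that stood apart, where 17.5% of all genes changed. LAMB3, a laminin subunit, rose in both lines, by 1.75 (SE 0.09, adjusted p = 6.06e-10) in SUM149PT and 1.21 (SE 0.16, adjusted p = 0.000297) in SUM190PT. Under vehicle 12 of the 13 were higher in SUM149PT, with KRT5 at 4.90 and CAV1 at 5.72. Over all genes, 46.7% differed in that comparison, and 22.1% were lower in SUM149PT.

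**Figure D4:**
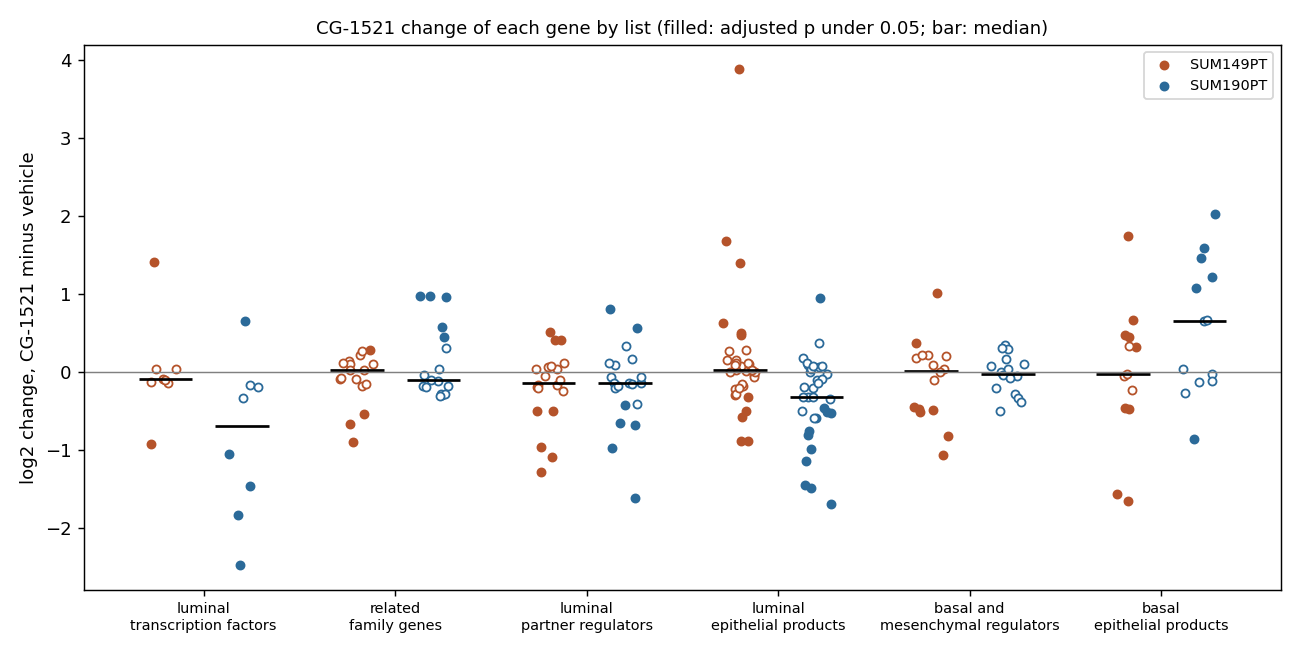
Log2 change of each gene with CG-1521 against vehicle, by gene list, in SUM149PT (orange, left of each pair) and SUM190PT (blue, right); filled points passed an adjusted p under 0.05 and bars are medians. The median of the 8 luminal factors lies at -0.09 in SUM149PT and -0.68 in SUM190PT, and that of luminal products at 0.03 and -0.31.

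Genes of DNA replication moved with the same comparisons. All 28 fell in SUM149PT with CG-1521 against vehicle, with a median of -1.33, where 19.9% of all genes fell. In SUM190PT 2 of the 28 fell, with a median of -0.91, where 8.26% of all genes fell. Without the arrays that stood apart 27 fell there, with a median of -1.40, where 17.5% of all genes changed. With both agents against estradiol, 28 fell in SUM149PT and 7 in SUM190PT, or 27 there without those arrays. Over all genes, 20.4% fell in SUM149PT and 13.2% in SUM190PT, and 27.4% changed there without those arrays. The marker counts below are for CG-1521 against vehicle, where 34.3% of all genes changed in SUM149PT and 16.6% in SUM190PT. Of markers of other cells a culture could hold, 0 of 9 fibroblast genes rose and 2 fell in SUM149PT, and none passed in SUM190PT. Of 7 leukocyte genes 2 rose and 1 fell in SUM149PT and 1 rose in SUM190PT, and of 7 endothelial genes none passed in either line. FAP changed by -2.22 and LCP1 by 2.06 in SUM149PT, and CD68, a lysosomal protein, by 1.91 in SUM190PT. Of 6 luminal markers 1 rose in SUM149PT and 3 fell in SUM190PT, or 1 without the arrays that stood apart (17.5% of all genes changed). Of 3 basal markers 1 rose in each line. The part of these genes in the results was not tested.

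For each of the 8 genes with an SD of at least 0.3 once the line means were subtracted, the 3 most similar of 3609 such genes were found by Pearson's r over the 24 arrays. The arrays of a line share its treatments, so these values describe shared patterns and carry no p. The neighbours were picked on these same arrays, so a CG-1521 change like that of the gene they resemble was largely fixed by that choice. The changes and adjusted p values given for neighbours below are description and add no evidence. TFAP2A and ELF5 varied less than that and were not ranked. Nearest to GATA3 were CDK14, a cyclin-dependent kinase gene, at 0.97, SLC12A2, an ion cotransporter gene, at 0.97, and PDGFC, which encodes a growth factor, at 0.96. These fell with CG-1521 in both lines, CDK14 by 1.19 in SUM149PT and 1.86 in SUM190PT.

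Nearest to TFAP2B were GASK1B and ALDH18A1, both at 0.97, and ATP13A5, at 0.96. ATP13A5 changed by -0.11 in SUM149PT and -2.66 in SUM190PT, past the threshold in SUM190PT alone. SPDEF had PRODH, ABCC11 and ABCC12, all at 0.96. ABCC11, a membrane transporter of apocrine glands, changed by -0.09 (SE 0.14, adjusted p = 0.67) in SUM149PT and -2.40 (SE 0.25, adjusted p = 9.27e-05) in SUM190PT. FOXA1 had ELAPOR1, at 0.96, ZG16B and LRRC31, both at 0.95. ELAPOR1 rose in SUM149PT, by 0.56 (SE 0.14, adjusted p = 0.00428), and its change in SUM190PT was -3.00 (SE 0.28, adjusted p = 5.83e-05).

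EHF had BBS9, at 0.98, GSAP and ADTRP, both at 0.97. BBS9 rose by 2.19 in SUM149PT with CG-1521, and changed by -0.15 in SUM190PT. ELF3 had the loosest neighbours, SERPINE2, at 0.86, CRTC2, at 0.83, and S100A10, at 0.81. Without the arrays that stood apart these 3 values were 0.77, 0.78 and 0.69, and those of the other 5 genes ran 0.938 to 0.985. Of all 18 neighbours, 7 were still among the nearest 3 without those arrays, and 5 were by Spearman's rho. None of the SPDEF neighbours was by either measure, nor were ZG16B, LRRC31, GSAP, ADTRP, ATP13A5 and S100A10.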

How the data were processed

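RNA from 24 cultures was hybridised to Affymetrix Human Gene 1.0 ST arrays, after NuGEN pico amplification per the labels' protocols. The deposited values are log2 expression per probe set, made with RMA in Affymetrix Expression Console per the submitters' processing notes (versions not given in the sources used here), and were used as deposited. Of 33297 probe sets, 19460 had 1 gene symbol, 1754 had several and 12083 had no entry. Each of 18417 genes was represented by 1 probe set, the brightest on average where a gene had several (769 genes). No values were missing and no 2 arrays were identical.

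Groups were compared with limma 3.58.1 (lmFit and eBayes, two-sided, Benjamini-Hochberg over all genes) in R 4.3.3 with statmod 1.5.0, over the 12 arrays of a line for 10 contrasts within lines and over all 24 for 6 contrasts between lines. The script was tested on simulated data. Tables and figures used Python 3.11.15, pandas 2.3.3, numpy 2.4.6 and matplotlib 3.10.9. The alternatives took quantile normalization, median centring, array weights, the mean of a gene's probe sets, the brighter genes alone, the replicate number as a block, a fit of the 2 groups alone or of all 24 arrays, a trended robust prior, a 2-fold minimum, and arrays left out. Same-numbered arrays correlated above 0.1 in all 3 pairs only in SUM190PT. They gave 0.443, 0.229 and 0.729 for estradiol against vehicle, where the highest correlation of differently numbered arrays was 0.447. For estradiol added to CG-1521 they gave 0.518, 0.434 and 0.502 (highest other -0.172). In SUM149PT all 3 were positive for estradiol against vehicle, at 0.23, 0.15 and 0.054 (highest other 0.08). So were those for estradiol added to CG-1521 there, at 0.144, 0.097 and 0.11 (highest other -0.022).

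All 8 genes are named. From each other list and contrast, up to 4 genes with the largest change among those past the threshold could be named, or the 1 with the smallest p where none passed. TFAP2C, GATA2, ESR1 and XBP1 were always looked up, and by likeness the 3 nearest genes were named. The antisense genes GATA3-AS1 and TFAP2A-AS1 were looked up as well. The genes and lists were chosen with earlier results of these data known. Some listed genes were not analysed here. With 3 arrays a group, the number of arrays limits the precision. Promoter sequences are RefSeq's, build GRCh38.p14.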

Additional observations from a re-analysis of the deposited data

Results flagged for a closer look

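The change with CG-1521 differed between the lines for 4 of the 8 genes, by limma's test of the difference itself, with and without estradiol. Over all genes, 20.6% differed in this way without estradiol and 20.4% with it. Each value is the log2 change in SUM149PT minus that in SUM190PT.

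FOXA1 differed by 1.09 (SE 0.13, adjusted p = 6.42e-06) without estradiol and 1.02 (SE 0.13, adjusted p = 1.03e-05) with it. Its log2 change was 0.04 in SUM149PT and -1.04 in SUM190PT without estradiol. SPDEF differed by 1.88 (SE 0.26, adjusted p = 2.96e-05) and 1.75 (SE 0.26, adjusted p = 4.95e-05). Its change was 0.04 in SUM149PT, where its level was not tested against background, and -1.84 in SUM190PT. TFAP2B differed by 2.35 (SE 0.27, adjusted p = 2.63e-06) and 2.51 (SE 0.27, adjusted p = 6.56e-07). Its change was -0.12 in SUM149PT, where its level lay below the array medians, and -2.47 in SUM190PT.

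EHF differed by 1.60 (SE 0.18, adjusted p = 1.97e-06) without estradiol and 2.21 (SE 0.18, adjusted p = 2.06e-08) with it. Its change was 1.41 in SUM149PT and -0.19 in SUM190PT. Line, CG-1521 dose and medium cannot be told apart in these values.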

How the results depend on the processing

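Of 2120 values for single genes under the alternatives, 2088 kept their side of the threshold, 20 were no longer called, 12 became called and 0 called values changed sign. Among values not called under either setting, 88 changed sign. Of 283 counts of the 8 genes called, 281 stayed within 1.5 times the reported count. Asking for at least 2-fold gave 1 gene in place of 2 in SUM149PT with CG-1521 against vehicle, and 3 in place of 7 in SUM190PT with both agents against estradiol, since it adds a criterion. With arrays left out in turn, the number called ran 2 to 2 and, with estradiol, 2 to 3 in SUM149PT. In SUM190PT it ran 4 to 5 and 5 to 7. With the replicate block, 4 of the 8 genes were called in SUM190PT with CG-1521 against vehicle (ELF3 lost, adjusted p = 0.0507), and 3 in SUM149PT with both agents against estradiol (TFAP2A gained, adjusted p = 0.0387). It changed no other call among the 8 genes. The response difference of ELF3 between the lines without estradiol passed under median centring (-0.83, adjusted p = 0.0365) and without the dimmest 50% of genes (adjusted p = 0.0442). It also passed without the third SUM149PT vehicle array (adjusted p = 0.0372) or the first SUM190PT vehicle array (adjusted p = 0.0336). Without the second SUM190PT CG-1521 array it passed at -0.97 (adjusted p = 0.0106). Without the arrays that stood apart it was -0.56 (adjusted p = 0.15). The response difference of GATA3 with estradiol passed without the third SUM190PT array with both agents (0.72, adjusted p = 0.0218). Without dim genes ELF5 was not tested. The cause was not tested.

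Over all genes, the called count for SUM190PT estradiol against vehicle was 1, and ran 0 to 3079 under the alternatives, with 519 under the replicate block. The interaction in SUM190PT called 95, and 0 to 2540 under the alternatives, with 0 under the replicate block. SUM190PT with CG-1521 against vehicle called 3053, with 5070 over all 24 arrays, 1878 without the second vehicle array and 1567 without the first CG-1521 array. With both agents against estradiol it called 4732, with 7203 under array weights and 2605, 2679 and 3063 without single arrays. Estradiol added to CG-1521 in SUM190PT called 0, with 7 over all 24 arrays and 1 without the arrays that stood apart. In SUM149PT estradiol against vehicle and the interaction called 0, and 1 without a vehicle or an estradiol array. The 2-fold minimum gave 876 and 886 genes in SUM149PT with CG-1521, 709 and 901 in SUM190PT, 2514 to 3204 between the lines, and 918 and 1089 for the response differences. Between the lines under estradiol, 6661 genes were called without dim genes, where fewer were tested, and 10065 with them.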
